A study of Mus musculus with 2 samples.

Results

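The genes described here are the 6 cohesin subunit genes Rec8, Rad21, Rad21l, Smc1b, Smc3 and Stag3, taken by name from the gene lists of both libraries, 6 of the 30052 gene symbols that the joined tables hold. Adult mouse testes were dissociated and profiled by single-cell RNA sequencing, with 1 library labelled Nsun7 knockout (KO) and 1 labelled wild type (WT). Nsun7 encodes a protein of the NOL1/NOP2/SUN family, whose members include RNA 5-methylcytosine methyltransferases. The sources used here do not give the strain, the design of the knockout allele or the number of animals per library, and neither genotype had a labelled treatment. With 1 library per genotype, genotype, animal and library preparation cannot be told apart, and differences between the libraries are described without any test.

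Cohesin is a ring-shaped protein complex that holds sister chromatids together and organises chromosomes into loops. SMC3 pairs with an SMC1 protein, a kleisin protein closes the ring, and a STAG protein binds the kleisin. Dividing somatic cells use the kleisin RAD21, while meiotic cells add the kleisins REC8 and RAD21L and replace the other subunits in part with SMC1B and STAG3, which together form the core of the meiotic chromosome axis. REC8 cohesion is cleaved along chromosome arms at the first meiotic division and at centromeres at the second.

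The KO matrix held 16837 barcodes with 210531446 counts and the WT matrix held 16376 barcodes with 220247156 counts. The cell filter kept 13869 KO cells, whose median depth was 12020 unique molecular identifiers (UMIs), and 15139 WT cells, whose median depth was 8723 UMIs. Levels are given as CPM, the summed counts of a gene in a cell class or cluster scaled to a fixed total of UMIs, and the 95% intervals reflect only the error of counting. Nsun7 itself was measured at 40.9 CPM over all kept KO cells, against 174 CPM over all kept WT cells, and was lower in the KO library in each of the 9 named classes. Elongating spermatids made up 61.3% of kept KO cells, against 29.6% of kept WT cells. The libraries share 2168 barcode names, but these names are running numbers and none of the shared names had equal totals in both libraries.

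Germ cells fell into 5 classes, each named from marker genes that do not include any cohesin gene, and each to be read as "like" its name. Spermatogonia numbered 527 in KO and 1136 in WT, early spermatocytes 489 in KO and 1316 in WT, and late spermatocytes 692 in KO and 2674 in WT. Round spermatids numbered 1231 in KO and 2160 in WT, and elongating spermatids 8502 in KO and 4474 in WT. Clusters within a class were ordered by the summed level of the next class's markers, and elongating spermatid clusters by the ratio of Prm2 to Tnp1. Neither Nsun7 nor the cohesin genes entered the clustering.

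The promoters of Smc1b and Stag3 are shown because the levels of these genes had the most similar course of any member pair across classes (Pearson r of 0.95 on log2(CPM + 5) over 18 points, which are 9 classes in each of 2 libraries and share library and depth). Each sequence is the RefSeq window from 250 bases before to 50 bases after the gene's RefSeq start in GRCm38.p6, read on the gene's strand. Smc1b is at chr15:85131908-85132207 on the minus strand and Stag3 at chr5:138280259-138280558 on the plus strand. In the GENCODE M21 annotation Stag3 begins at position 138280240, upstream of this window. The whole Stag3 window thus lies inside the gene as GENCODE places it. Capitals mark exact matches to TTCCCGC, a form of the E2F motif, or to CACGTG, an E-box.
Smc1b: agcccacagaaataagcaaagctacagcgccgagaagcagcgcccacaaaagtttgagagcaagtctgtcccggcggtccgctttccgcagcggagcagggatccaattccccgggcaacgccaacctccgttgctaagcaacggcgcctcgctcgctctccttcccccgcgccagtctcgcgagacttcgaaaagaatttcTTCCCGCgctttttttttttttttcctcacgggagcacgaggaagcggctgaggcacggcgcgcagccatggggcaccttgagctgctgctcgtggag
Stag3: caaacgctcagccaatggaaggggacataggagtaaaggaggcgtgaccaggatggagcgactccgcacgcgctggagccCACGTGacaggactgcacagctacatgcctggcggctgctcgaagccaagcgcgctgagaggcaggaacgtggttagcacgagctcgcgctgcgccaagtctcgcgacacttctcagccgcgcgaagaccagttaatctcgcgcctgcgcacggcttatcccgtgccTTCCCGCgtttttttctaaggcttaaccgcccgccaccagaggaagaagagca

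TTCCCGC began 48 bases before the RefSeq start of Smc1b and 3 bases before that of Stag3, and CACGTG began 170 bases before that of Stag3. Against the GENCODE start of Stag3, both of its matches lie inside the gene. Searched on both strands, TTCCCGC occurs in 4.60% and CACGTG in 7.15% of 32817 RefSeq promoter windows of the same length. The windows of Rec8, Rad21l and Smc3 held neither of these letter strings, and Rad21 had no entry in the table. The string CNCCTCAG, reported for STRA8, was in none of the 5 windows and is in 7.94% of all windows. The motifs do not overlap each other here, they were chosen after the sequences had been seen, and a match describes letters only.

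Rad21l, which encodes a kleisin of early meiotic prophase, had the narrowest window of the 6 genes. The gene lies at chr2:151645404-151668533 on the minus strand (GRCm38, GENCODE M21). In cluster 11, the early spermatocyte cluster led by Stra8, Dazl and Tex101, Rad21l stood at 35.2 CPM in KO (interval 28.8 to 42.6) and 31.5 CPM in WT (26.6 to 37.1). In the later spermatogonial cluster 14 it was at 4.98 CPM in KO and 3.82 CPM in WT. The level in cluster 11 was thus 7.06 times that in cluster 14 within KO (4.35 to 12.03) and 8.26 times within WT (5.48 to 12.9). In cluster 18, the early spermatocyte cluster led by Piwil1, Sycp3 and Sycp1, 1 count was left in KO and 4 in WT. Of 146 Rad21l counts in all kept KO cells, 107 were in early spermatocytes, and of 214 counts in WT cells, 147 were. When each cell was thinned to 1000 UMIs, 3.82% of 419 KO cells and 3.16% of 918 WT cells of cluster 11 held a Rad21l UMI, against 16.2% of KO cells and 12.5% of WT cells unthinned. Leydig-like cells, which should lack the gene, held it in 0 of 360 KO cells and 1 of 334 WT cells unthinned, at median depths of 14100 UMIs in KO and 10541 UMIs in WT. The count of 0 there allows a share of cells with a UMI of up to 1.02% by an exact binomial interval, which does not limit the share of cells that express the gene.

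Rec8, the kleisin that carries cohesion through both meiotic divisions, came in 2 separate waves. The gene lies at chr14:55618037-55625395 on the plus strand. The first wave was in cluster 11, at 71.1 CPM in KO (61.9 to 81.3) and 54.0 CPM in WT (47.5 to 61.2). The transcript was then nearly missing from clusters 18 and 17, with 0 and 4 counts in KO and 11 and 42 counts in WT. Cluster 10, the middle late spermatocyte cluster, held 1.48 CPM in KO and 6.50 CPM in WT. In cluster 8, the last spermatocyte cluster and one that Ccna1 and Aurka help to lead, Rec8 was back at 52.9 CPM in KO and 48.1 CPM in WT. The highest level was in cluster 9, the earliest round spermatid cluster, with 133 CPM in KO (126 to 140) and 122 CPM in WT (117 to 126). The transcript was therefore most abundant in cells past both meiotic divisions in each library. Clusters 6 and 19, placed later among the round spermatids by the summed elongating spermatid markers, held 63.7 and 57.0 CPM in KO and 69.9 and 54.7 CPM in WT. These markers also summed to 68859 CPM in KO and 32120 CPM in WT in spermatogonia. How far free RNA set the place of cluster 6, with median depths of 2276 UMIs in KO and 2305 UMIs in WT, was not tested. Elongating spermatids as a class held 2.76 CPM in KO and 4.56 CPM in WT, below the minimum mean of 10 CPM used to compare the libraries.

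Rad21, the kleisin of mitotic cohesin, ran the other way. The gene lies at chr15:51962240-51991747 on the minus strand. Its highest level was in spermatogonia, where cluster 15, which precedes cluster 14, held 303 CPM in KO (272 to 337) and 310 CPM in WT (284 to 339). In cluster 14 it stood at 196 CPM in KO and 265 CPM in WT, and in cluster 11 at 72.4 CPM in KO and 77.8 CPM in WT. Late spermatocytes had low levels, from 13.8 to 15.9 CPM over clusters 17, 10 and 8 in KO and from 12.2 to 20.4 CPM in WT. The earliest round spermatids stayed low as well, with 17.5 CPM in KO (15.03 to 20.2) and 25.1 CPM in WT (23.3 to 27.0) in cluster 9. In the later round spermatid cluster 19, Rad21 was at 169 CPM in KO (151 to 188) and 200.2 CPM in WT (189.7 to 211). That is 9.68 times the level of cluster 9 in KO (8.05 to 11.7) and 7.97 times in WT (7.27 to 8.74). Cluster 6, which has low counts per cell but leading genes close to those of cluster 19, gave 193 CPM in KO and 189.8 CPM in WT. Among all genes that averaged at least 10 CPM over both clusters, 23.3% in KO and 22.8% in WT were at least 1.5 times higher in cluster 19 than in cluster 9, and of the 5 cohesin genes measured there Rad21 was the only one in either library. With 5 CPM added to each level, Rec8 was at least 1.5 times lower in cluster 19 in both libraries. Of all genes, 44.3% were that much lower in KO and 40.8% in WT. Smc1b, Smc3 and Stag3 passed this limit in KO and not in WT, without a test of that difference. Without the added CPM, Stag3 in WT was 1.51 times lower (1.39 to 1.64).

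The same turn was seen cell by cell at equal depth. After thinning to 1000 UMIs, 20.8% of 77 KO cells and 19.7% of 269 WT cells in cluster 19 held a Rad21 UMI. In cluster 9 these shares were 1.25% of 481 KO cells and 2.56% of 1211 WT cells. Without thinning they were 85.7% in KO and 86.6% in WT for cluster 19, and 22.9% in KO and 32.9% in WT for cluster 9. Elongating spermatids, the class with the lowest Rad21 level, gave a thinned share of 0.988% in KO and 1.41% in WT, so the share in cluster 9 was near that low level in KO and above it in WT. Median depths were 21753 UMIs in KO and 19639 UMIs in WT for cluster 19, and 15048 UMIs in KO and 17131 UMIs in WT for cluster 9.

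Read as the make-up of the summed kleisin counts, these courses gave several handovers in each library. Counts of 3 genes are summed here without regard to transcript length, so changes between clusters can be read but not the balance within 1 cluster. Rad21 supplied 96.6% of kleisin counts in cluster 15 of KO and 95.2% in WT. In cluster 11 it supplied 40.5% in KO and 47.6% in WT, with Rec8 at 39.8% in KO and 33.1% in WT and Rad21l at 19.7% in KO and 19.3% in WT. Among the clusters up to round spermatids, the share of Rad21l was highest in cluster 11, in both libraries. The share of Rad21 was higher again in the next clusters, at 93.75% in KO and 89.7% in WT in cluster 18. It was 91.7% in KO and 84.4% in WT in cluster 17, and 91.1% in KO and 74.1% in WT in cluster 10. In KO these shares rested on 16, 48 and 45 kleisin counts. Rec8 supplied 76.6% in KO and 70.1% in WT in cluster 8, and 88.4% in KO and 82.7% in WT in cluster 9. In cluster 19 its share was 25.2% in KO (21.2 to 29.6) and 21.5% in WT (19.6 to 23.5), and Rad21 made up the remainder.

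**Figure D1:**
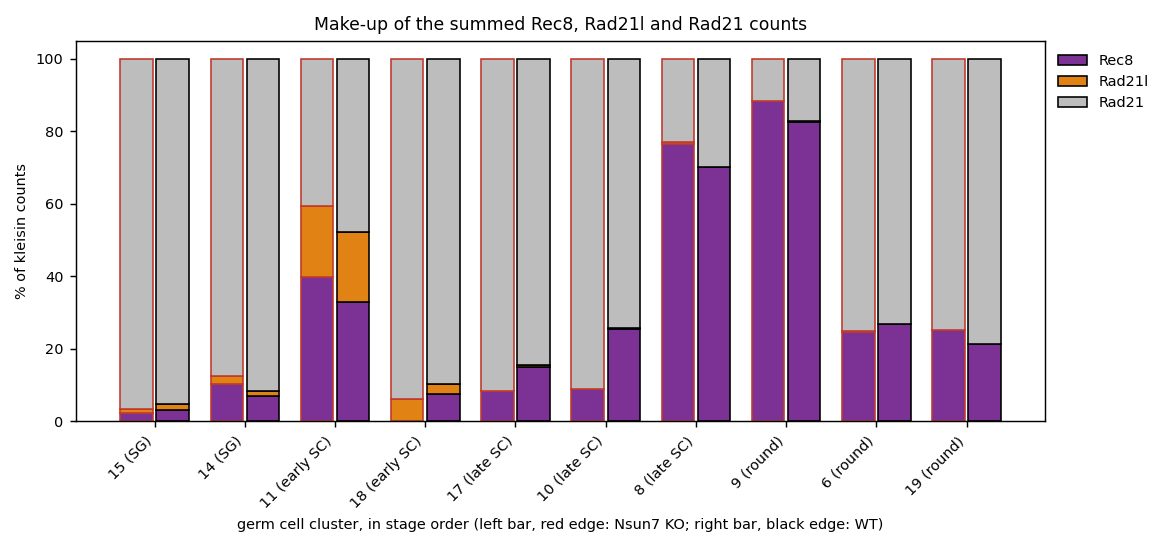
Share of the summed Rec8, Rad21l and Rad21 counts (y axis, percent) in each germ cell cluster up to round spermatids (x axis, in stage order; SG, spermatogonia; SC, spermatocytes), with KO on the left of each pair and WT on the right. The share of Rad21 is highest in cluster 15 (96.6% in KO, 95.2% in WT), that of Rec8 in cluster 9 (88.4% in KO, 82.7% in WT), and that of Rad21l in cluster 11 (19.7% in KO, 19.3% in WT); counts are not adjusted for transcript length.

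Smc3, the SMC subunit shared by mitotic and meiotic cohesin, had 2 high points with a deep trough between them. The gene lies at chr19:53600398-53645833 on the plus strand. Cluster 11 held 619 CPM in KO (591 to 648) and 641 CPM in WT (618 to 664). Cluster 17, the earliest late spermatocyte cluster, held 8.81 CPM in KO and 11.8 CPM in WT, which is 70.3 times lower than cluster 11 within KO (48.5 to 106) and 54.2 times lower within WT (47.4 to 62.3). Smc3 was measured again at 112 CPM in KO and 106 CPM in WT in cluster 8, and at 189 CPM in KO and 195 CPM in WT in cluster 9. Like Rec8, it therefore had a first peak in cluster 11, a trough in cluster 17 and a second high point in round spermatids. From cluster 10 to cluster 9, Rec8, Smc1b and Smc3 were at least 1.5 times higher and Stag3 at least 1.5 times lower in both libraries, where 29.6% of all genes in KO and 29.3% in WT were that much higher and 33.0% in KO and 30.3% in WT that much lower.

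Smc1b, the meiotic SMC1 subunit, kept a substantial level throughout the spermatocyte and round spermatid clusters. The gene lies at chr15:85064689-85131964 on the minus strand and overlaps a pseudogene on the other strand, Gm10923, which is not in the tables. Its peak was in cluster 11, with 1202 CPM in KO (1163 to 1242) and 1244 CPM in WT (1211 to 1277). In cluster 17 the level was 242 CPM in KO and 239.6 CPM in WT, 4.98 times lower than in cluster 11 within KO (4.60 to 5.39) and 5.19 times lower within WT (4.99 to 5.40). A second, smaller high point was in cluster 9, with 423.5 CPM in KO and 418 CPM in WT. Spermatogonia already held 339 CPM in KO and 408 CPM in WT as a class, so the transcript was present before the early spermatocyte peak.

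Stag3, the meiotic STAG subunit, changed least across the spermatocyte clusters. The gene lies at chr5:138280240-138312393 on the plus strand. Cluster 11 held 294 CPM in KO (275 to 314) and 297 CPM in WT (281 to 313), and cluster 17 held 263 CPM in KO (245 to 281) and 243 CPM in WT (237 to 250.5). The ratio of cluster 17 to cluster 11 was 0.894 in KO and 0.820 in WT, and Stag3 was the only cohesin gene not at least 1.5 times lower in cluster 17. Among all genes, 47.9% in KO and 49.2% in WT were at least 1.5 times lower in cluster 17 than in cluster 11. Cluster 18, the other early spermatocyte cluster, held 154 CPM in KO (121 to 193), on 75 counts, and 226 CPM in WT (214 to 239), so its level lay below those of clusters 11 and 17 in each library. After cluster 17 the level was lower in each later cluster up to round spermatids, reaching 81.1 CPM in KO and 98.6 CPM in WT in cluster 19.

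Entry into meiosis, taken as cluster 11 over cluster 14, therefore split the 6 genes in the same way in each library. Rec8, Rad21l, Smc1b, Smc3 and Stag3 were at least 1.5 times higher in cluster 11 in both KO and WT, and Rad21 was at least 1.5 times lower in both. Of all genes measured, 30.2% in KO and 19.9% in WT were that much higher and 18.7% in KO and 17.2% in WT that much lower. The fold was 3.07 in KO and 2.68 in WT for Rec8, and 3.23 in KO and 2.74 in WT for Smc1b. It was 2.27 in KO and 1.93 in WT for Smc3, and 2.82 in KO and 2.44 in WT for Stag3. Rad21 was 2.71 times lower in KO (2.33 to 3.16) and 3.41 times lower in WT (3.04 to 3.82).

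**Figure D2:**
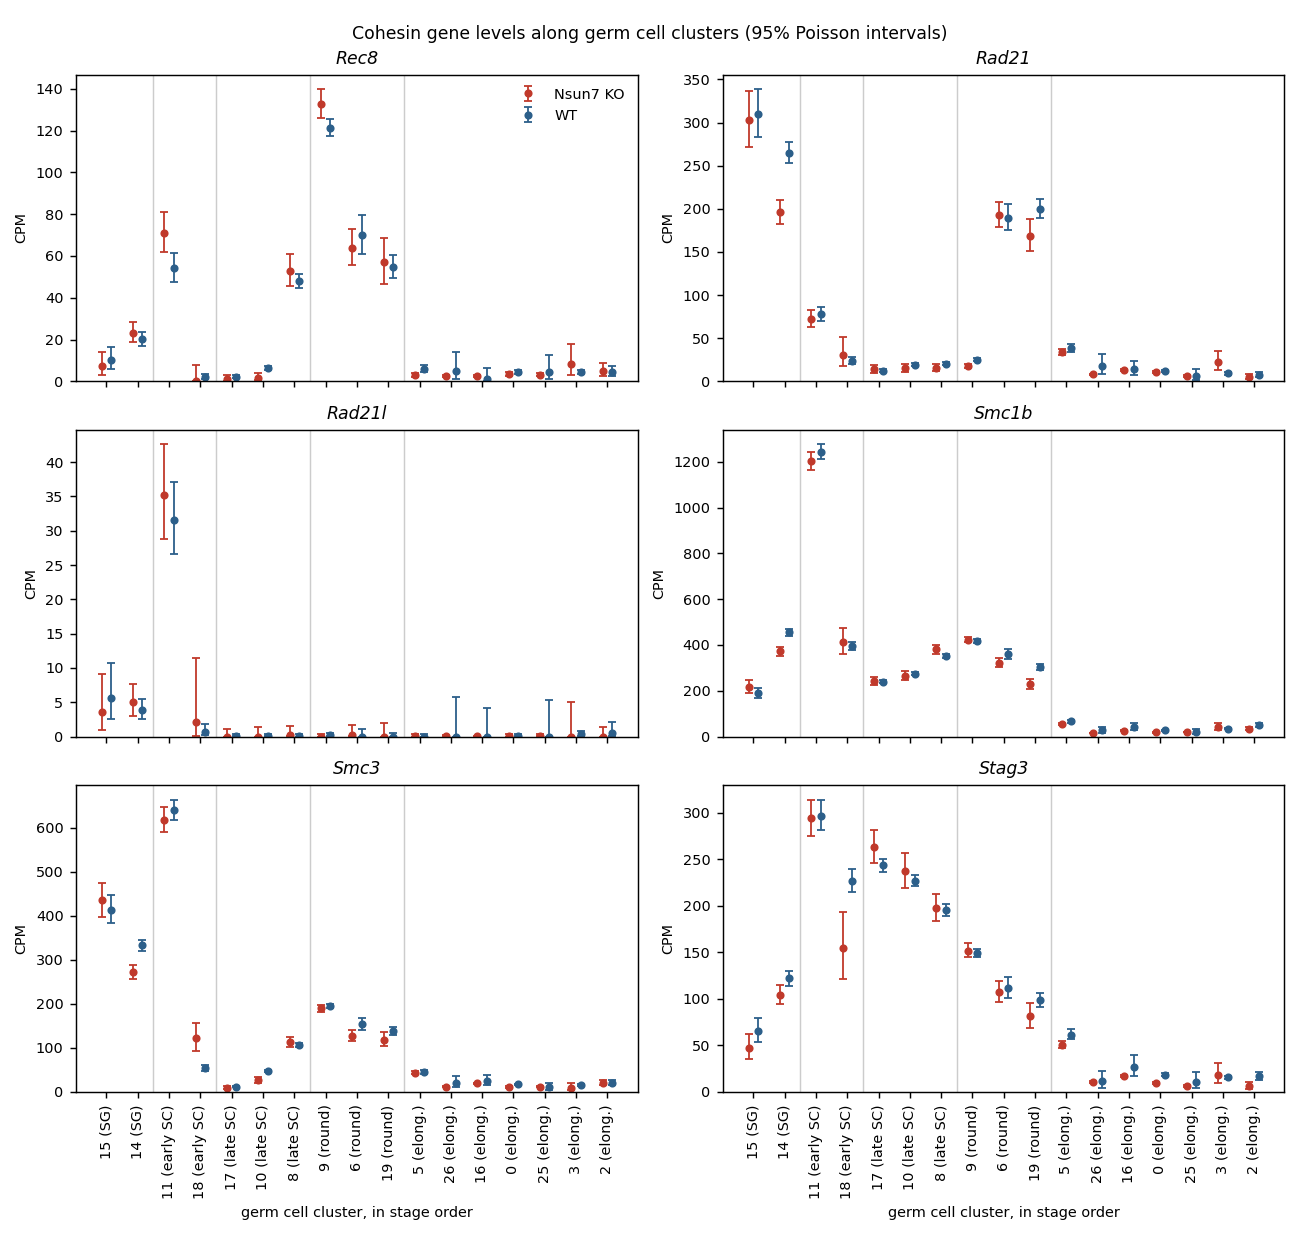
CPM of each cohesin gene (y axis, from 0) in the 17 germ cell clusters in stage order (x axis; SG, spermatogonia; SC, spermatocytes; elong., elongating spermatids), with KO in red left of WT in blue and bars for exact Poisson intervals. Rad21l stands out in cluster 11 alone, Rec8 has its peak in cluster 9 (133 CPM in KO, 122 CPM in WT), and Rad21 is high in spermatogonia and again in clusters 6 and 19.

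By class, the order of the levels followed from these courses. Rec8 was highest in round spermatids in each library, Rad21 in spermatogonia, and Rad21l, Smc1b and Stag3 in early spermatocytes. Smc3 was highest in early spermatocytes in KO, at 549.6 CPM, and in spermatogonia in WT, at 347 CPM against 316 CPM in WT early spermatocytes. Early spermatocytes were the highest germ class of 30.9% of all genes in KO and 19.4% in WT, round spermatids of 17.3% in KO and 18.2% in WT, and spermatogonia of 16.9% in KO and 30.8% in WT. Late spermatocytes were the highest class of 24.0% of genes in KO and 20.8% in WT, and elongating spermatids of 10.9% in KO and 10.8% in WT, and of none of the cohesin genes. Neighbours whose counting intervals overlapped included late spermatocytes and spermatogonia for Rec8 in both libraries, and spermatogonia and round spermatids for Smc1b in WT. For Stag3 the early and late spermatocyte classes were next to each other, with 275 and 231 CPM in KO and 258 and 223 CPM in WT, and their intervals did not overlap.

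The comparison of the genotypes asked whether cohesin transcripts differed between KO and WT germ cells of the same class. Of 30 pairs of a gene and a germ class, 25 reached a mean of 10 CPM. In 3 of these the KO library was at least 1.5 times higher and in 0 at least 1.5 times lower, after adding 5 CPM to each level. All 3 were in early spermatocytes, a class in which 17.0% of all genes were that much higher and 18.5% that much lower. Rec8 was at 61.2 CPM in KO and 25.3 CPM in WT, 2.42 times higher (2.01 to 2.92). Rad21l was at 30.6 CPM in KO and 14.5 CPM in WT, 2.11 times higher (1.63 to 2.72). Smc3 was at 549.6 CPM in KO and 316 CPM in WT, 1.74 times higher (1.64 to 1.84). The other 3 members lay inside the limit, with Smc1b at 1093 CPM in KO and 775 CPM in WT, Rad21 at 66.6 CPM in KO and 47.8 CPM in WT, and Stag3 at 275 CPM in KO and 258 CPM in WT.

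The early spermatocyte class had a different make-up in the libraries. Cluster 11 supplied 85.7% of its cells and 86.1% of its UMIs in KO, and 69.8% of its cells and 44.7% of its UMIs in WT. The summed level of the 12 late spermatocyte markers in the class was 826 CPM in KO and 2897 CPM in WT, and that of the 11 early spermatocyte markers was 2806 CPM in KO and 2086 CPM in WT, with no marker of either list at 0. Within cluster 11 the ratio of KO over WT was 1.32 for Rec8 (1.09 to 1.59), 1.12 for Rad21l (0.860 to 1.45) and 0.966 for Smc3 (0.911 to 1.02), so none reached 1.5 times there, in a cluster where 4.31% of all genes were that much lower and 0.75% higher. With both clusters weighted alike in each library, the log2 ratio with 5 CPM added was 0.33 for Rec8, 0.15 for Rad21l and 0.03 for Smc3, against 1.13, 0.87 and 0.79 for the class as a whole. In cluster 18, which held 70 KO cells and 398 WT cells, Smc3 alone was past the limit, at 121 CPM in KO and 53.4 CPM in WT, 2.27 times higher (1.69 to 3.01). In that cluster 18.0% of all genes were at least 1.5 times higher and 19.7% at least 1.5 times lower, and the summed level of late spermatocyte markers used to order it was 3069 CPM in KO and 4639 CPM in WT.

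**Figure D3:**
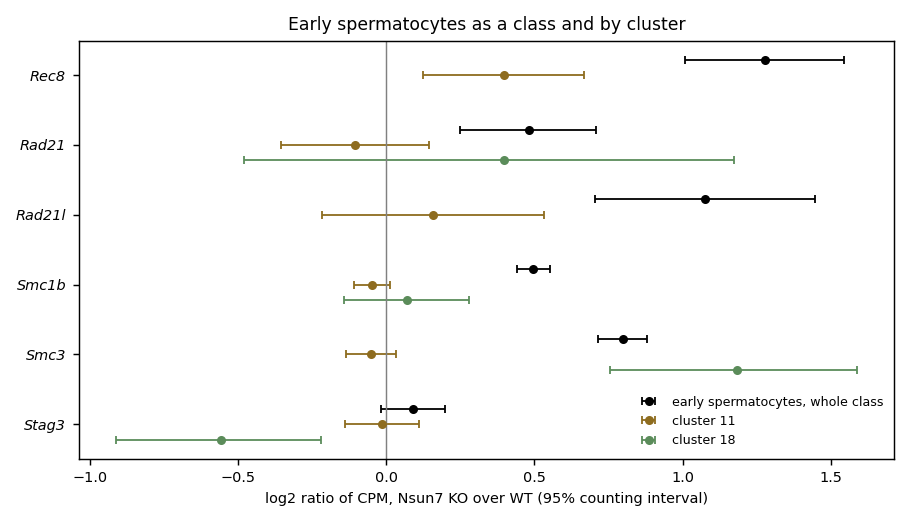
Log2 ratio of CPM, KO over WT, with no CPM added (x axis), for each cohesin gene (y axis) in early spermatocytes as a class and in clusters 11 and 18, with 95% counting intervals; genes under a mean of 10 CPM in a cluster are left out. Class ratios of Rec8, Rad21l and Smc3 lie well to the right of 0, and their ratios in cluster 11 lie nearer to 0.

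In the other germ classes no member was past the limit with the cell classes used here, but calls arose there under some alternatives. In round spermatids Rec8 was at 109 CPM in KO and 105 CPM in WT, a ratio of 1.03 (0.977 to 1.10), and Rad21 at 73.6 CPM in KO and 70.7 CPM in WT, a ratio of 1.04 (0.971 to 1.12). In late spermatocytes Stag3 was at 231 CPM in KO and 223 CPM in WT, a ratio of 1.03 (0.987 to 1.08). Of all genes in late spermatocytes 0.204% were at least 1.5 times lower and 2.18% higher, and in round spermatids 0.291% were lower and 0.703% higher. In spermatogonia Rad21 was at 220 CPM in KO and 273 CPM in WT, 1.24 times lower (1.16 to 1.34), within a class where 3.13% of genes were at least 1.5 times lower and 7.53% higher. With classes by marker share the log2 ratio in spermatogonia was 0.80 for Rad21 and 0.88 for Smc3, and under the stricter filter that of Rad21 was -0.66. After thinning to 1000 UMIs the log2 ratio of Rec8 was 0.88 in spermatogonia and 0.81 in late spermatocytes. These values rested on a Rec8 UMI in 12 KO and 15 WT spermatogonia and in 22 KO and 45 WT late spermatocytes. Unthinned, the ratio of Rec8 was 1.07 (0.827 to 1.38) in spermatogonia and 1.28 (1.10 to 1.49) in late spermatocytes. When each library was clustered separately the log2 ratio of Rad21 in round spermatids was -0.71. Over the 10 clusters up to round spermatids, 47 gene and cluster pairs were measured. Apart from Smc3 in cluster 18, Smc3 in cluster 10 was past the limit, at 25.9 CPM in KO and 46.7 CPM in WT, in a cluster where 0.811% of all genes were that much lower and 1.76% higher. In the spermatogonial clusters the share of all genes past the limit was 6.21% lower and 5.71% higher for cluster 15, and 6.38% lower and 9.22% higher for cluster 14. In the other late spermatocyte clusters it was 0.247% lower and 3.7% higher for cluster 17, and 2.03% lower and 0.711% higher for cluster 8. In the round spermatid clusters it was 0.134% lower and 0.439% higher for cluster 9, 3.67% lower and 0.63% higher for cluster 6, and 3.15% lower and 1.23% higher for cluster 19. No cohesin gene was past the limit in these 7 clusters. The log2 ratios of the 47 pairs, with 5 CPM added, ran from -0.74 to 1.11 with a median of -0.04.

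Elongating spermatids held low levels of each member. Smc1b was at 23.8 CPM in KO and 36.01 CPM in WT, 1.51 times lower (1.43 to 1.60), and Stag3 at 14.96 CPM in KO and 23.3 CPM in WT, 1.56 times lower (1.46 to 1.67). With 5 CPM added both lay inside the limit, in a class where 7.44% of all genes were at least 1.5 times lower and 0.338% higher. Over the alternatives the log2 ratio ran from -0.70 to -0.08 for Smc1b and from -0.80 to -0.18 for Stag3. Each was thus past the limit, lower in KO, under at least 1 alternative. Different clusters held most of the class, since clusters 26, 16 and 25 held 25.4%, 21.4% and 23.9% of its KO cells while clusters 0 and 3 held 33.5% and 35.0% of its WT cells. The level of Smc1b expected from free RNA, estimated from Leydig cell genes, was 5.33 CPM in KO and 16.6 CPM in WT. With the free RNA estimate subtracted, Smc1b was at 19.6 CPM in KO and 20.9 CPM in WT. Stag3 was then at 13.3 CPM in KO and 15.7 CPM in WT. The cause of the differences between the libraries in this class was not tested. Over the 7 elongating clusters 25 pairs of a gene and a cluster were measured, of which 5 were at least 1.5 times lower in KO and 1 higher. Both libraries filled clusters 0, 2 and 5. Stag3 was at 9.38 CPM in KO and 18.3 CPM in WT in cluster 0, which held 882 KO and 1499 WT cells, 1.95 times lower (1.63 to 2.35), with 4.79% of all genes that much lower and 0.237% higher. In cluster 2, of 778 KO and 751 WT cells, Stag3 rested on 16 counts in KO and 58 counts in WT, 6.15 CPM in KO and 16.5 CPM in WT, with 15.8% of all genes lower and 2.23% higher. The other calls were in clusters with under 60 cells of 1 library. Smc1b was lower in cluster 16 (8.82% of all genes lower, 1.33% higher), Rad21 and Smc3 were lower in cluster 26 (9.56% lower, 1.99% higher), and Rad21 was higher in cluster 3 (1.75% lower, 10.2% higher). No member was past the limit in clusters 5 and 25, and in cluster 25 the shares of all genes were 11.2% lower and 5.85% higher. In cluster 5, of 771 KO and 443 WT cells, Smc1b was at 53.2 CPM in KO and 65.8 CPM in WT, and Stag3 at 50.6 CPM in KO and 61.5 CPM in WT. Of all genes in cluster 5, 4.82% were at least 1.5 times lower and 0.0352% higher.

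The sums over all kept cells follow the make-up of each library as well as the levels within classes. Smc1b was at 98.1 CPM in KO and 231 CPM in WT, and Stag3 at 44.2 CPM in KO and 122 CPM in WT, 2.77 times lower (2.71 to 2.84). Rec8 was at 14.7 CPM in KO and 28.7 CPM in WT, Rad21 at 26.0 CPM in KO and 42.6 CPM in WT, Smc3 at 51.4 CPM in KO and 92.1 CPM in WT, and Rad21l, under the minimum of 10 CPM, at 0.723 CPM in KO and 0.998 CPM in WT. In all of these sums the share of elongating spermatids, the class with low levels, differed as given above. The germ class with the most counts of Stag3 in WT, late spermatocytes, made up 4.99% of kept KO cells and 17.7% of kept WT cells.

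In somatic classes the mitotic genes Rad21 and Smc3 were present throughout. In Sertoli-like cells Rad21 was at 64.9 CPM in KO and 126 CPM in WT, and Smc3 at 59.6 CPM in KO and 113 CPM in WT. Rec8 was at 16.98 CPM in KO and 29.3 CPM in WT in these cells. In WT this level ranked next after round spermatids, with an interval that overlapped that of early spermatocytes at 25.3 CPM. These 3 genes were at least 1.5 times lower in KO, in a class where 49.4% of all genes were that much lower and 10.8% higher. The summed level of the 12 elongating spermatid markers in Sertoli-like cells, with none at 0, was 136641 CPM in KO and 54853 CPM in WT. The class joined cluster 1, of 573 KO and 595 WT cells, and the deeper cluster 24, of 18 KO and 102 WT cells. The 12 Sertoli markers summed to 7229 CPM in KO, with 1 at 0, and to 14092 CPM in WT. The parts of spermatid transcripts and of cluster make-up in the difference were not tested. In Leydig-like cells Rad21 was at 55.8 CPM in KO and 76.1 CPM in WT and Smc3 at 51.3 CPM in KO and 64.9 CPM in WT, both inside the limit, in a class where 5.78% of all genes were at least 1.5 times lower and 0.424% higher.

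The meiotic genes Rec8, Smc1b and Stag3 were lower in Leydig-like cells, macrophages and interstitial stroma than in the germ classes up to round spermatids. In Sertoli-like cells Smc1b was at 60.1 CPM in KO and 79.8 CPM in WT, and Stag3 at 36.2 CPM in KO and 55.0 CPM in WT. Both lay inside the limit there with 5 CPM added. Smc1b was at 8.47 CPM in KO and 27.4 CPM in WT in Leydig-like cells, where Stag3 was at 5.19 CPM in KO and 18.96 CPM in WT, and both were past the limit. In macrophages Smc1b was at 31.5 CPM in KO and 62.9 CPM in WT, and Stag3 at 9.20 CPM in KO and 64.1 CPM in WT, with 28.4% of all genes at least 1.5 times lower and 8.09% higher. The level of Smc1b expected in macrophages from free RNA was 17.7 CPM in KO and 73.2 CPM in WT, so the WT level was below that estimate. For Stag3 the estimate was 7.98 CPM in KO and 38.7 CPM in WT, so the KO level was near it and the WT level above it. The 12 elongating spermatid markers summed to 114340 CPM in KO and 69505 CPM in WT in macrophages. How well an estimate from Leydig cell genes covers germ cell transcripts was not tested, so expression by macrophages cannot be read from these levels. In interstitial stroma Smc1b was at 28.6 CPM in KO and 54.0 CPM in WT, with 19.4 CPM in KO and 53.5 CPM in WT expected from free RNA and with 12.2% of all genes at least 1.5 times lower and 6.7% higher. Rad21l had no count in macrophages or interstitial stroma of either library.

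**Figure D4:**
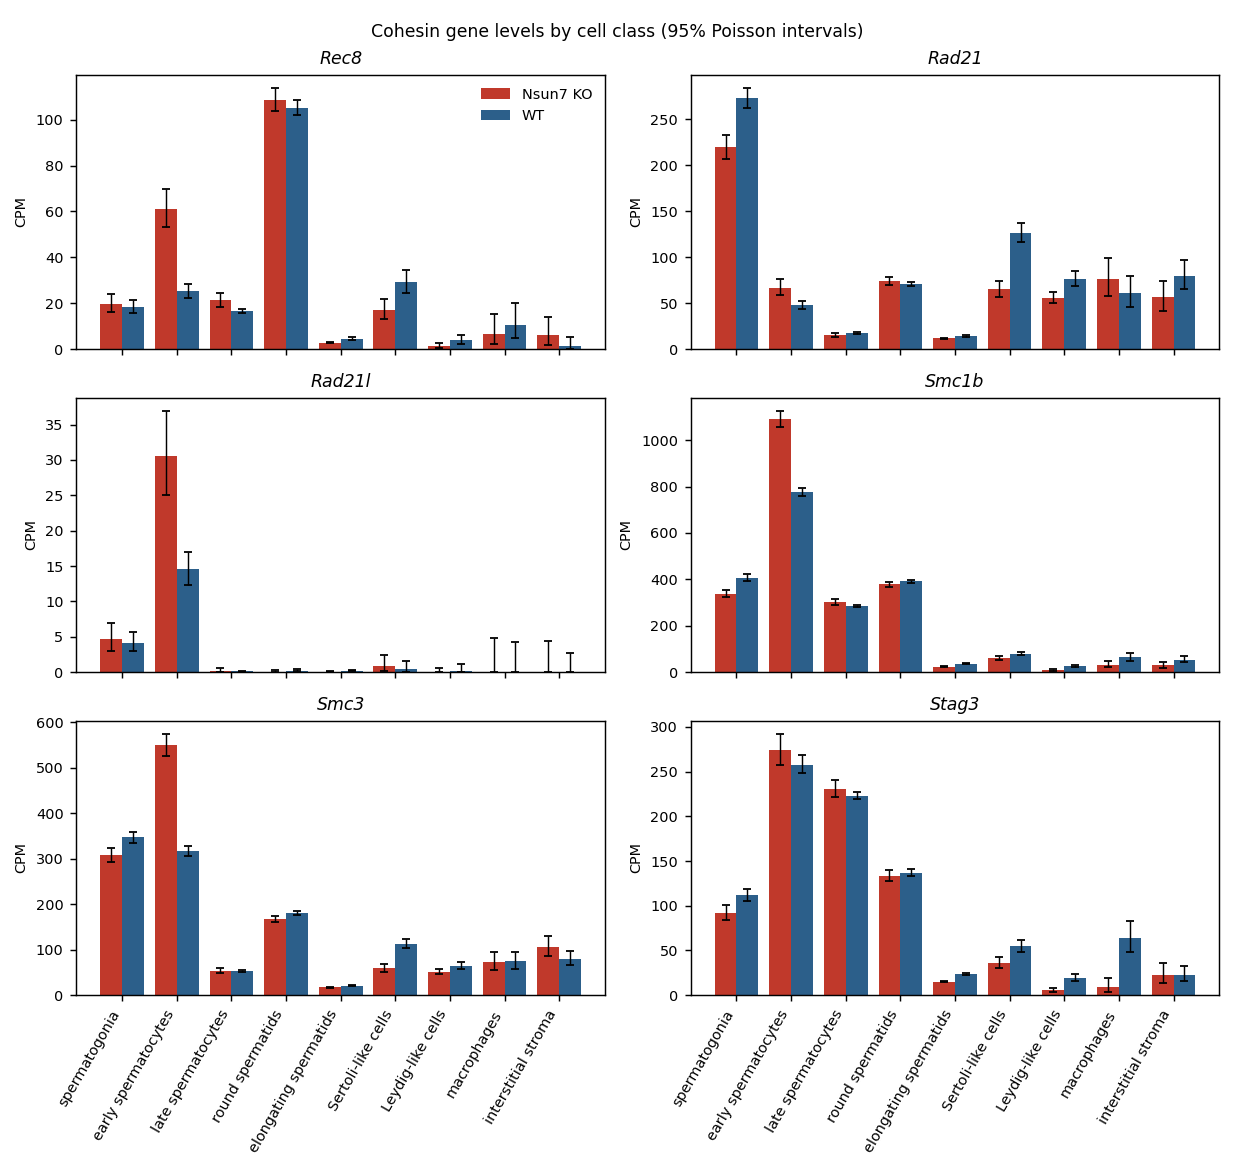
CPM of each cohesin gene (y axis, from 0) in the 5 germ cell and 4 somatic classes (x axis), with KO bars in red left of WT bars in blue and exact Poisson intervals. Early spermatocytes show the largest gaps for Rec8 (61.2 CPM in KO, 25.3 CPM in WT) and Smc3 (549.6 CPM in KO, 316 CPM in WT), while round spermatid bars nearly match.

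The genes most alike each member in level over the 9 classes of both libraries were found among 8323 genes by Pearson's r of log2(CPM + 5) over the same 18 points. Rad21l was most like Ccnb3 (r of 0.99), a meiotic cyclin, followed by Hist1h2ba, Ugt8a, Prdm9 (0.97), the histone methyltransferase that places recombination sites, and Shoc1. Ccnb3 and Prdm9 are also markers used to name the early spermatocyte class. Smc1b was most like Bub1 (0.98), a spindle checkpoint kinase, and then Btbd10, Rnf17, Ints6 and Zranb1. Stag3 was most like Boll (0.98), a germ cell RNA-binding protein, and then Hsf2bp, a meiotic recombination factor, Macrod2, Hcfc2 and Atf7ip2. Smc3 was most like Swt1 (0.97), then Tipin, a replication fork protein, Wdr75, Ckap5 and Hat1. Rec8 was most like Usp37 (0.93), then Pigf, Nfatc2ip, Tfb1m and Eya3. Rad21 was most like Polr2f (0.92), an RNA polymerase subunit, then Snhg9, Hnrnpab, Hmgn1 and Mier1. Within the family Rad21 was least like Stag3 (0.03).

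Among 20 cohesin partners and regulators, 17 reached 10 CPM in early spermatocytes, of which 5 were at least 1.5 times higher and 2 lower in KO, with a median log2 ratio of 0.43 against 0.13 over all genes of the class, of which 17.0% were that much higher and 18.5% lower. With the same cluster mix in each library, none of the 8 calls of this list over the germ classes was left. The share of all genes past the limit was not computed for that mix, here or for the lists below. Ctcfl, the testis paralogue of the loop anchor CTCF, was at 39.2 CPM in KO and 14.6 CPM in WT. Pttg1, the securin that restrains the cohesin-cleaving protease separase, was at 60.6 CPM in KO and 159 CPM in WT, 2.63 times lower (2.28 to 3.05). In the same class the loader gene Nipbl was at 354 CPM in KO and 379 CPM in WT, the release factor gene Wapl at 224 CPM in KO and 196 CPM in WT, and the mitotic subunit gene Stag1 at 225 CPM in KO and 153 CPM in WT, all inside the limit. None of this list was past the limit in spermatogonia, late spermatocytes or round spermatids. The extremes in late spermatocytes were Pds5a at 23.3 CPM in KO and 27.2 CPM in WT and Wapl at 303 CPM in KO and 289 CPM in WT. In round spermatids they were Sgo2a, a protector of centromeric cohesion, at 10.4 CPM in KO and 14.05 CPM in WT, and Meikin, a meiosis-specific kinetochore factor, at 38.2 CPM in KO and 38.8 CPM in WT. In elongating spermatids 2 of the list were measured and Nipbl was lower, at 18.5 CPM in KO and 34.3 CPM in WT. Of all genes in that class 7.44% were at least 1.5 times lower and 0.338% higher.

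Of 23 chromosome axis and synapsis genes, 22 were found, all measured in early spermatocytes, where 7 were at least 1.5 times higher and 0 lower in KO, beside 17.0% higher and 18.5% lower of all genes. With the same cluster mix the list had 1 call over the germ classes, against 9 without it. Stra8, the factor that starts the meiotic programme, was at 1200.4 CPM in KO and 513 CPM in WT, 2.34 times higher (2.25 to 2.44), and it is also among the leading genes of cluster 11. Syce1, a central element protein of the synaptonemal complex, was lowest in ratio, at 262 CPM in KO and 382 CPM in WT. Its partners Sycp1, at 2171 CPM in KO and 1843 CPM in WT, and Sycp3, at 1935 CPM in KO and 1958 CPM in WT, lay inside the limit. None of the list was past the limit in spermatogonia, late spermatocytes or round spermatids. In late spermatocytes Sycp3 was at 326 CPM in KO and 396 CPM in WT and Syce2 at 78.1 CPM in KO and 63.9 CPM in WT, and in round spermatids Sycp3 was at 53.9 CPM in KO and 80.6 CPM in WT and Syce2 at 321 CPM in KO and 266 CPM in WT. In elongating spermatids Sycp2 and Sycp3 were lower, of 6 measured, beside 7.44% lower and 0.338% higher of all genes in that class.

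The other SMC complexes, condensin and SMC5/6, gave 2 higher and 2 lower of 14 genes in early spermatocytes, near the 17.0% higher and 18.5% lower of all genes. With the same cluster mix this list had 1 call over the germ classes, against 6 without it. Ncapg2, a condensin II subunit, was at 169 CPM in KO and 95.03 CPM in WT, and Nsmce1, an SMC5/6 subunit, at 64.1 CPM in KO and 169.8 CPM in WT, 2.65 times lower (2.31 to 3.06). Smc4 was at 1008 CPM in KO and 1233 CPM in WT, Smc6 at 578 CPM in KO and 491 CPM in WT, and Smc5 at 169.6 CPM in KO and 188 CPM in WT. In spermatogonia, late spermatocytes and round spermatids 0 of the list were past the limit. The extremes in late spermatocytes were Smc2, the other condensin SMC protein, at 53.6 CPM in KO and 76.1 CPM in WT, and Ncapg2 at 11.8 CPM in KO and 10.6 CPM in WT. In round spermatids they were Ncapg, at 26.6 CPM in KO and 35.4 CPM in WT, and Nsmce1, at 358 CPM in KO and 379.5 CPM in WT. In elongating spermatids Smc4 and Smc5 were lower, of 4 measured, beside 7.44% lower and 0.338% higher of all genes in that class.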

How the data were processed

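Whole-number counts per gene and barcode were deposited by the authors, written by PISA 0.12 per the file headers; the submitters' processing notes name GRCm38, and the sources used here do not name the aligner, the annotation or the barcode filter. Testes were minced, digested and strained, and poly(A) RNA libraries were made with the DNBelab C system, per the labels. The smallest barcode total was 1001 in both matrices. Barcodes were taken as cells and counts as UMIs.

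The filter asked for a minimum of 200 genes and a mitochondrial share of no more than 20%, and left out 2968 in KO and 1237 in WT. Scrublet called 631 KO and 641 WT cells doublets (4.55% and 4.23%), which were kept, and 1 cluster made up mostly of doublets stayed unnamed. With scanpy 1.11.5, the 3000 most variable genes of each library were joined, and Nsun7 and the cohesin genes were taken out. The remaining genes were reduced to 40 components and clustered with Leiden at resolution 1, without batch correction. Clusters took the class with the highest marker score. Leading genes for the check of names were ranked with 50 CPM added, a value set after the clusters were seen, because with 5 CPM the main round spermatid cluster would have stayed unnamed. In all, 5 clusters stayed unnamed.

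Counts were summed per class, with exact Poisson, conditional binomial and Clopper-Pearson intervals. UMIs come from 1 library each, so intervals cover counting error only. A gene was called different at 1.5 times with 5 CPM added to each level and a mean of 10 CPM or more, which describes 2 libraries and is no test. Levels are tag counts not adjusted for length, so genes are not compared with each other. Calculations were checked on simulated counts. Named genes of each list were the highest and lowest ratio in early spermatocytes, late spermatocytes and round spermatids and up to 4 of the most abundant, and the genes most like a member were the 5 with the highest correlation. The members and lists were chosen with earlier results of these data known. Alternatives changed the filter, doublets, clustering, naming, scaling, depth, free RNA, added CPM and minimum level.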

Additional observations from a re-analysis of the deposited data

How the results depend on the processing

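No paired analysis was possible because each genotype has 1 library. The count of gene and germ class pairs at least 1.5 times higher in KO, 3 in the values above, was 0 with the same cluster mix, 0 with the mean of CPM over cells, 0 with the cohesin genes allowed as variable genes, 1 when each library was clustered separately and 1 with a minimum of 50 CPM. With classes by marker share 4 pairs were higher and after thinning 2 were, but these included pairs in spermatogonia and late spermatocytes, and in early spermatocytes Rec8 alone passed under the first and no member under the second. The count of pairs lower in KO, 0 above, was 3 when each library was clustered separately, 2 at resolution 2, 2 with the cohesin genes allowed as variable genes, 1 with the stricter filter and 1 with 1 CPM added. Of the 3 ratios past the limit, Rad21l in early spermatocytes alone changed sign, to a log2 ratio of -0.004051 when each library was clustered separately; Rec8 there ran from 0.33 to 1.30 and Smc3 from 0.03 to 0.99 over the alternatives. That clustering named no KO late spermatocytes and gave no value for them. Calls over the germ classes, 8 for cohesin partners, 9 for axis genes and 6 for condensin and SMC5/6 genes, were 15, 14 and 13 with the stricter filter, 0, 1 and 1 with the same cluster mix, 1, 4 and 2 with the cohesin genes as variable genes, and 2, 5 and 3 with a minimum of 50 CPM. Partners gave 4 with the mean of CPM over cells and 5 with 20 CPM added, axis genes 5 with 20 CPM added, and condensin and SMC5/6 genes 3 with the mean of CPM over cells, 3 with TMM scaling and 11 after thinning. The share of all genes past the limit was not computed under the alternatives. A change in these counts therefore cannot be told from a general change in calls over all genes. Apart from the same cluster mix, whose construction removes differences in cluster shares, the cause of these moves was not tested. The highest class of Rec8, Rad21, Rad21l and Smc1b stayed the same in each library under every alternative that gave one. Alternatives that changed only the added CPM or the minimum level could not move it, and clustering each library separately gave none. Stag3 moved to late spermatocytes with classes by marker share, and Smc3 in WT moved to early spermatocytes under 6 alternatives, TMM scaling and the same cluster mix among them. The depth limits Rad21l most, which had under 10 counts per library in each late spermatocyte, round spermatid and somatic class.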

Other observations

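Cells that took no class name carried cohesin transcripts as well. Cluster 12, of 635 KO and 807 WT cells with low counts and Pabpc6 and Dnah8 as leading genes, held Smc1b at 355 CPM in KO and 347 CPM in WT, Stag3 at 199 CPM in KO and 205 CPM in WT, and no Rad21l count in either library. Cluster 4, of 161 KO and 608 WT cells led by Cypt12, Cypt1 and Hils1, held Smc1b at 41.5 CPM in KO and 42.2 CPM in WT and Rec8 at 3.19 CPM in KO and 4.78 CPM in WT. The barcodes left out by the cell filter held Rad21 at 87.7 CPM in KO and 136 CPM in WT, and Smc3 at 71.0 CPM in KO and 127 CPM in WT.

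At a depth of 1000 UMIs per cell, meiotic members were recorded in the same cell more often in early spermatocytes than in the other classes, while unthinned the WT shares were higher in late spermatocytes and round spermatids. Of Rec8, Rad21l, Smc1b and Stag3, 2 or more had a UMI in 20.9% of 489 KO cells and 17.8% of 1316 WT cells of this class after thinning to 1000 UMIs. In late spermatocytes the thinned share was 7.23% in KO and 6.25% in WT, and in round spermatids 7.88% in KO and 7.50% in WT. Unthinned, the shares were 70.3% in KO and 62.9% in WT in early spermatocytes, 66.0% in KO and 80.7% in WT in late spermatocytes, and 57.1% in KO and 71.0% in WT in round spermatids. Leydig-like cells gave a thinned share of 0% in KO and 0.299% in WT.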
